A study of Mus musculus with 10 samples.

Results

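The genes examined are 10 listed markers of macrophages and other myeloid cells (Ctss, Fcer1g, Tyrobp, Cd68, Csf1r, Lyz2, Cd52, Adgre1, Laptm5 and Cd14), out of 22053 Ensembl genes measured by RNA-seq in mouse kidney glomeruli. The members are a fixed list of symbols, and each matched 1 identifier of the table and passed the filter of a mean of at least 0.5 FPKM. The study compared 5 wild-type libraries (Col4a3 wild-type) with 5 libraries of the Col4a3 p.G799R genotype, a missense change in the alpha 3 chain of type IV collagen, the collagen of the glomerular basement membrane. The labels give genotype and tissue only: nothing in the sources used here gives zygosity, age, sex or strain. Since no label ties a library to a mouse, the replicate spread behind every p-value could be technical. The series title names a bile acid, tauroursodeoxycholic acid. No label of the 10 libraries gives a treatment, and the deposited values cover no other libraries. Values are FPKM, fragment numbers scaled by transcript length and library total, so levels of different genes can be compared per length.

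Macrophages are resident phagocytes of the kidney and are also formed there from blood monocytes. The growth factor receptor CSF1R keeps them alive and marks the lineage together with the surface protein F4/80, the product of Adgre1. FCER1G and TYROBP (DAP12) are short adaptor chains that carry an activation motif called ITAM, and they pass signals from Fc receptors and other receptors to the kinase SYK. Cathepsin S (Ctss), lysozyme (Lyz2), CD68 and LAPTM5 belong to lysosomes or secretory granules, CD14 presents lipopolysaccharide to the receptor TLR4, and CD52 is a small surface glycoprotein of leukocytes.

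Of the 10 genes, 6 rose in G799R libraries (Fcer1g, Ctss, Tyrobp, Laptm5, Cd52 and Cd68), each by at least 2-fold in mean FPKM, and 0 fell. The other 4 (Lyz2, Csf1r, Cd14 and Adgre1) were not called by limma after Benjamini-Hochberg adjustment over 13117 tested genes, and none of these 4 had an unadjusted p under 0.05, which 64.4% of tested genes had. In the same comparison 40.5% of all tested genes were called higher, 19.3% were called lower, and 6.1% were called and at least 2-fold higher. The median log2 difference of the 10 genes, G799R minus wild type on log2(FPKM + 1), was 1.14, beside 0.17 over all tested genes. Every G799R library lay above every wild-type library for 4 members, a pattern that 26.1% of tested genes showed.

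**Figure D1:**
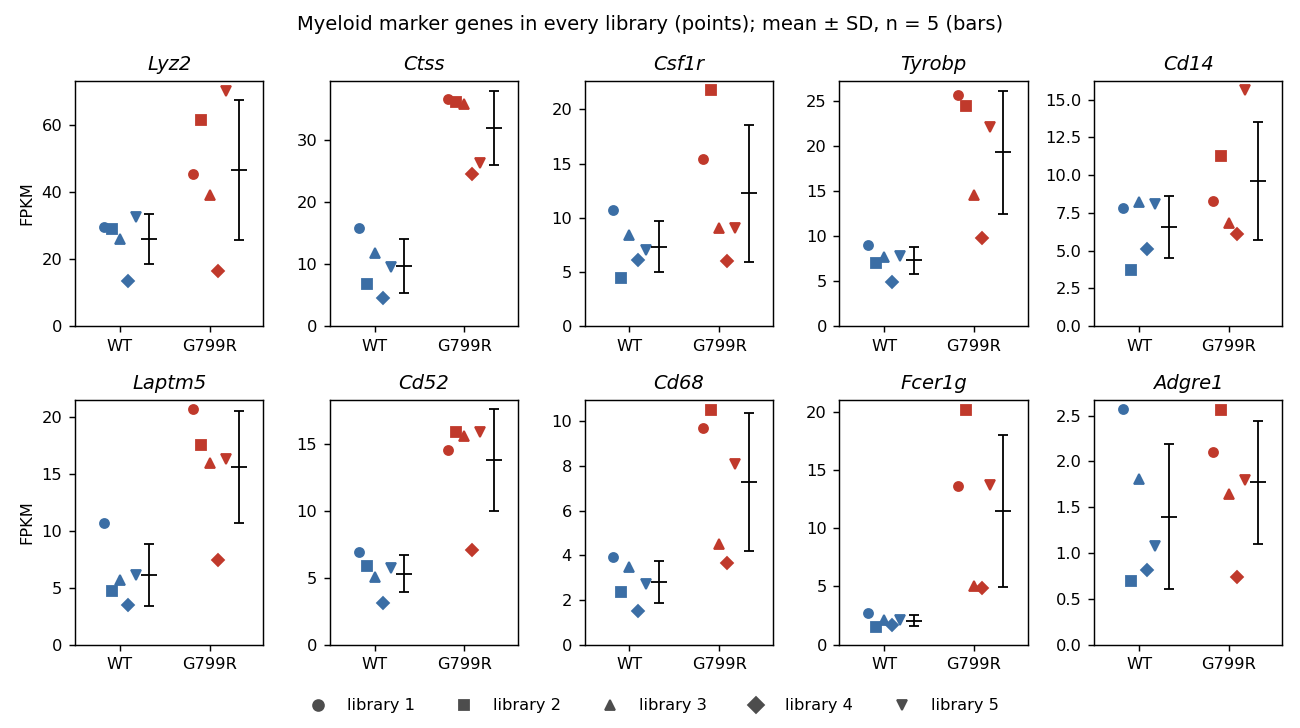
FPKM of the 10 myeloid marker genes (panels ordered by wild-type mean) in each library, with marker shapes for libraries 1 to 5 and bars for the mean ± SD of each group (n = 5). Fcer1g, Ctss, Tyrobp and Cd52 show no overlap between groups, and G799R library 4 is the lowest of its group in all 10 panels.

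The G799R libraries differed from wild type in their whole makeup, and these values stand beside every result here. List scores below are averages of log2(FPKM + 1) over the tested genes of a list, one per library. Markers of tubule cells scored 5.79 to 6.49 in wild type and 3.49 to 4.34 in G799R, with 37 of 38 called lower. Markers of podocytes, of glomerular endothelium and of mesangium and smooth muscle scored 5.82 to 6.42 in wild type and 6.69 to 6.87 in G799R. Together these are called glomerular markers below. Among the tubule and the glomerular markers 0 genes were at 0 in every library. Col4a3 itself was at means of 138 and 213 FPKM, which does not check the labels of a missense change. The sums of FPKM ran from 320720 to 340875, and relative depth, estimated from the steps of low values, from 0.859 to 1.20 times that of wild-type library 1. In FPKM a smaller share of one RNA source raises the values of the others, and in bulk samples fewer cells of a type and less RNA per cell cannot be told apart. The genotype comparison was therefore also computed with glomerular markers set equal in every library, which moved the median of all tested genes to −0.39. Under that scaling 5 of the 10 myeloid genes were called higher and 0 lower, beside 4.51% of tested genes called higher and 61.3% lower, and the members' median was 0.61. Median-of-ratios scaling left 6 called higher, beside 23.3% of tested genes called higher and 25.5% lower.

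The largest relative rise of the 10 was that of Fcer1g, which encodes the gamma chain shared by activating Fc receptors. It stood at 2.72, 1.51, 2.11, 1.70 and 2.13 FPKM in wild-type libraries 1 to 5 and at 13.6, 20.2, 5.06, 4.86 and 13.7 FPKM in G799R libraries 1 to 5. The groups did not overlap, and G799R libraries 3 and 4 were the lowest of their group. Mean FPKM was 5.64-fold higher, with a log2 difference of 1.87 ± 0.33 (SE, limma adjusted p = 0.000632). With glomerular markers set equal it was 1.37 (adjusted p = 0.00278). Fcer1g (ENSMUSG00000058715) lies on the minus strand of chromosome 1 at 171229572 to 171234365 in GENCODE M21, build GRCm38.

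Ctss, the lysosomal protease that trims the invariant chain for antigen presentation, went from 15.8, 6.86, 11.8, 4.59 and 9.47 FPKM in wild type to 36.8, 36.3, 35.9, 24.6 and 26.4 FPKM in G799R. The lowest G799R library was above the highest wild-type library. Its log2 difference came to 1.70 ± 0.26 (SE, limma adjusted p = 0.000224), and 1.10 with glomerular markers set equal (adjusted p = 0.000579). Ctss (ENSMUSG00000038642) lies on the plus strand of chromosome 3 at 95526786 to 95556403, and a processed pseudogene, Hmgb1-ps5, lies within it.

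Promoter windows of RefSeq (GRCm38.p6), 300 bases from 250 before to 50 after the start, were at hand for 5 of the 10 genes: Ctss, Fcer1g, Cd68, Lyz2 and Laptm5. Each was searched on both strands for GAGGAAGT, a motif of the myeloid factor PU.1, for the interferon response element, and for TTCNNNGAA, a STAT motif. These occur in 3.2%, 3.44% and 8.3% of all 32851 windows. Ctss was the only one of the 5 with a match. It held the interferon response element at −21 to −12 and the PU.1 motif, on the opposite strand, from −2 to 6, counted from the start as position 1, and these do not overlap. The stretch from 150 bases before to 20 after the start is shown for Ctss (chr3:95526636-95526805, plus strand), with both matches in capitals, and for Fcer1g (chr1:171234330-171234499, minus strand), the member with the largest rise and no match. A match describes letters only.
Ctss: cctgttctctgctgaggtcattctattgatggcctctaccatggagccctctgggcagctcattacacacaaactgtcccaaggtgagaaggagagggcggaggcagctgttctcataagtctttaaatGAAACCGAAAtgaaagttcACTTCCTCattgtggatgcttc
Fcer1g: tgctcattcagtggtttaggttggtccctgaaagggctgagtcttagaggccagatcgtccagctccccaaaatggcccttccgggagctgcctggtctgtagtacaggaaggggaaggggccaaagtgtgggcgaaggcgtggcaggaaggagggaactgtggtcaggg

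Tyrobp, the second adaptor chain with an ITAM, stood at 9.02, 7.02, 7.71, 4.94 and 7.74 FPKM in wild type and at 25.6, 24.4, 14.5, 9.73 and 22.2 FPKM in G799R. The groups did not overlap, although G799R library 4 exceeded the highest wild-type library only narrowly. The log2 difference was 1.23 ± 0.24 (SE, limma adjusted p = 0.00121), and 0.64 with glomerular markers set equal (adjusted p = 0.0277). The gene (ENSMUSG00000030579) lies on the plus strand of chromosome 7 at 30413760 to 30417585.

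Cd52 stood at 6.90, 5.85, 5.04, 3.08 and 5.69 FPKM in wild type and at 14.5, 15.9, 15.6, 7.04 and 15.9 FPKM in G799R. In G799R 4 libraries lay close together and library 4 stood far below them, just above the highest wild-type library. The log2 difference was 1.21 ± 0.23 (SE, limma adjusted p = 0.000955), and 0.64 with glomerular markers set equal (adjusted p = 0.0177). Cd52 (ENSMUSG00000000682, minus strand of chromosome 4, 134082448 to 134095082) overlaps Crybg2 on the opposite strand, and whether the authors' counting used strand is not given in the sources used here. Crybg2 had means of 0.913 FPKM in wild type and 0.0262 FPKM in G799R.

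Laptm5, a lysosomal membrane protein of blood cells, stood at 10.6, 4.67, 5.63, 3.50 and 6.14 FPKM in wild type and at 20.6, 17.5, 15.9, 7.38 and 16.3 FPKM in G799R. The groups overlapped only through G799R library 4, which lay below wild-type library 1. The log2 difference was 1.23 ± 0.28 (SE, limma adjusted p = 0.00315), and 0.65 with glomerular markers set equal (adjusted p = 0.0353). The gene (ENSMUSG00000028581) is on the plus strand of chromosome 4 at 130913125 to 130936141.

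Cd68, a lysosomal membrane marker of macrophages, stood at 3.93, 2.36, 3.46, 1.51 and 2.71 FPKM in wild type and at 9.71, 10.5, 4.51, 3.64 and 8.07 FPKM in G799R. Libraries 3 and 4 of G799R were again the low ones, and library 4 lay within the wild-type range. Its log2 difference of 1.08 ± 0.27 (SE, limma adjusted p = 0.00546) fell to 0.57 with glomerular markers set equal, where Cd68 was no longer called (adjusted p = 0.0612). The gene (ENSMUSG00000018774) is on the minus strand of chromosome 11 at 69664213 to 69666153.

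Csf1r, Adgre1, Cd14 and Lyz2 had the smallest log2 differences of the members. Csf1r stood at 10.7, 4.44, 8.38, 6.13 and 7.03 FPKM in wild type and at 15.4, 21.8, 9.08, 6.03 and 9.01 FPKM in G799R. Its groups overlapped, with G799R libraries 1 and 2 above every wild-type library and the other 3 inside the wild-type range. The log2 difference was 0.59, with a 95% interval of −0.07 to 1.25 (limma adjusted p = 0.108). It was 0.01 with glomerular markers set equal. Csf1r (ENSMUSG00000024621) overlaps Hmgxb3 on the opposite strand, whose means were 6.80 and 7.52 FPKM.

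Adgre1 was the lowest member, at 2.58, 0.696, 1.81, 0.819 and 1.08 FPKM in wild type and 2.11, 2.57, 1.65, 0.738 and 1.79 FPKM in G799R. No G799R library exceeded the highest wild-type library. On the log2 scale it differed by 0.23, with an interval of −0.29 to 0.75 (limma adjusted p = 0.418), and its sign turned to −0.13 with glomerular markers set equal. Adgre1 (ENSMUSG00000004730) is on the plus strand of chromosome 17 at 57358691 to 57483527.

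Cd14 stood at 7.79, 3.70, 8.20, 5.12 and 8.07 FPKM in wild type and at 8.27, 11.2, 6.80, 6.12 and 15.6 FPKM in G799R, with the highest value in library 5. Its log2 difference was 0.46, with an interval of −0.10 to 1.02 (limma adjusted p = 0.136). This also changed sign, to −0.11, with glomerular markers set equal.

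Lyz2 was the most abundant member in both groups, at 29.6, 29.1, 25.9, 13.4 and 32.5 FPKM in wild type and at 45.3, 61.5, 39.2, 16.4 and 70.3 FPKM in G799R. In G799R 4 libraries were above every wild-type library and library 4 was below 4 of the 5 wild-type libraries. Its log2 difference of 0.72 had an interval of −0.05 to 1.49 (limma adjusted p = 0.098), and was 0.09 with glomerular markers set equal (adjusted p = 0.816). Its close paralog Lyz1 had means of 0.0814 and 0.111 FPKM, so few fragments were assigned to it. Lyz2 (ENSMUSG00000069516) is on the minus strand of chromosome 10 at 117277331 to 117282321.

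Library 4 of G799R weighed on these results. It was the lowest G799R library for all 10 genes, and without it 8 genes were called, beside 37.8% of tested genes called higher and 18.4% lower, with Lyz2 at a log2 difference of 1.04 (limma adjusted p = 0.00558) and Csf1r at 0.79 (adjusted p = 0.0331) joining the 6. Without G799R libraries 3 and 4, 9 were called, all but Adgre1, beside 36.9% of tested genes called higher and 17.3% lower, and Fcer1g then differed by 2.46 and Cd14 by 0.75 (adjusted p = 0.0347). Leaving out G799R libraries that are low for these genes raises the differences by itself, so the added calls are no further support.

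**Figure D2:**
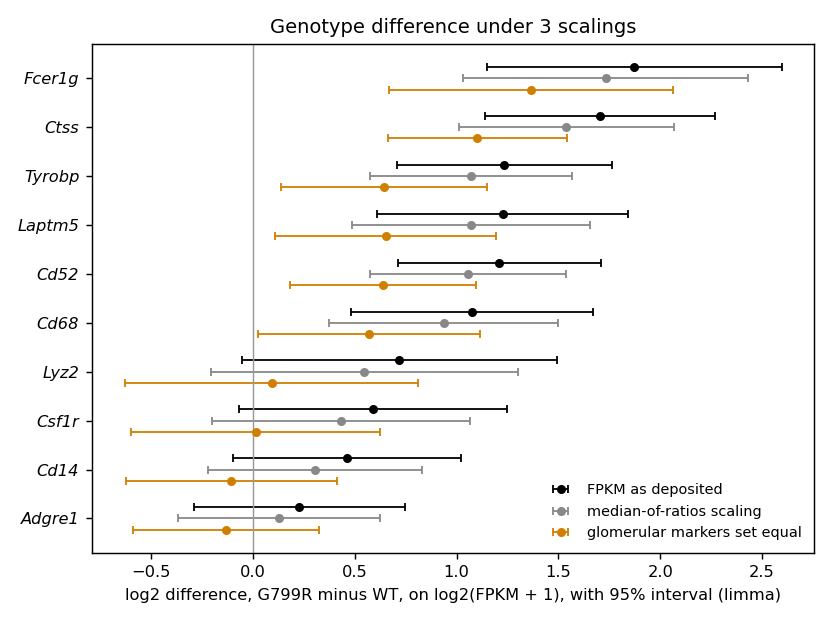
Log2 difference (G799R minus wild type on log2(FPKM + 1)) of each gene with its 95% limma interval, for FPKM as deposited (black), median-of-ratios scaling (grey) and glomerular markers set equal (orange). Fcer1g and Ctss stay the furthest from 0 under all 3 scalings, while Cd14 and Adgre1 move across 0 under the last.

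A ratio of members within a library does not depend on how libraries are scaled, so each gene was set against Csf1r as log2 of the ratio of FPKM + 0.1, with an exact two-sided permutation test over all splits into 5 and 5 libraries and adjustment over 9 genes. Fcer1g went from −1.77 ± 0.19 to −0.16 ± 0.51 relative to Csf1r (SD, n = 5 each), a shift of 1.6 with no overlap (exact permutation p = 0.00794, the smallest possible, adjusted p = 0.0357). Ctss shifted by 1.16, also with no overlap (exact permutation p = 0.00794, adjusted p = 0.0357), and Tyrobp by 0.68 with overlap (exact permutation p = 0.0159, adjusted p = 0.0476). These 3 genes were higher relative to Csf1r in G799R libraries by this threshold. With 9 genes, a gene alone at the smallest possible p could not pass, so the 3 calls depended on one another.

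The shifts of Laptm5, Cd52 and Cd68 were 0.71, 0.70 and 0.66 and missed the threshold (exact permutation, adjusted p = 0.0714, 0.107 and 0.0536). Lyz2, Cd14 and Adgre1 shifted by 0.09, −0.13 and −0.27 (exact permutation, adjusted p = 0.825, 0.813 and 0.286). With the leukocyte gene Ptprc in place of Csf1r the direction stayed for Fcer1g (1.19), Ctss (0.75) and Tyrobp (0.27), but 0 of 10 genes passed the adjusted threshold. The exact permutation p-values of Fcer1g, Ctss and Tyrobp were 0.00794, 0.0159 and 0.0397. That of Fcer1g is the smallest possible, and its adjusted p over 10 genes was 0.0794. With 10 genes, 1 gene alone at that smallest p could not pass. Adgre1, Cd14, Csf1r and Lyz2 lay the other way relative to Ptprc, by −0.68, −0.54, −0.41 and −0.32 (exact permutation p = 0.0238, 0.0714, 0.127 and 0.238). With any 1 of wild-type libraries 1, 3, 4 and 5 left out, 0 genes passed against Csf1r, and without G799R library 2, 5 did.

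**Figure D3:**
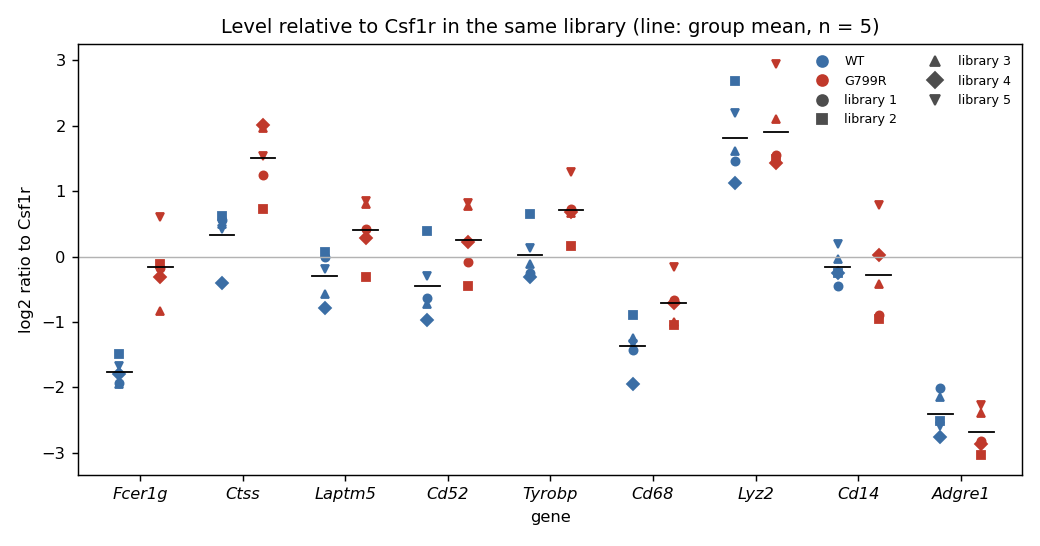
Log2 ratio of each gene to Csf1r in the same library (points, shapes for libraries 1 to 5, blue wild type, red G799R, lines for group means). The red points of Fcer1g and Ctss all lie above the blue ones, while those of Lyz2, Cd14 and Adgre1 overlap.

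The 10 genes varied together between libraries of the same genotype. Deviations of log2(FPKM + 1) from the group means were correlated over the 10 libraries for all 45 pairs, with an exact permutation of libraries within groups and adjustment over the pairs. Pearson r was positive for every pair, from 0.34 (Ctss with Fcer1g) to 0.96 (Tyrobp with Cd68), with a median of 0.71. The adjusted p was under 0.05 for 28 pairs by Pearson r and for 17 by Spearman rho.

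Tyrobp and Cd68 had r = 0.96 (exact permutation p = 0.000278, adjusted p = 0.00521) and rho = 0.95 (exact permutation p = 0.000625, adjusted p = 0.00781), and r = 0.95 without wild-type library 4 and G799R library 4, the farthest from the median of Tyrobp. Lyz2 and Cd52 had r = 0.93 (exact permutation p = 0.00576, adjusted p = 0.02) and rho = 0.73 (exact permutation p = 0.0206, adjusted p = 0.0516), but r = 0.36 without the same pair of libraries, so this relation rests on them. Csf1r and Adgre1 had r = 0.89 (exact permutation p = 0.000347, adjusted p = 0.00521), rho = 0.87 (exact permutation p = 0.000903, adjusted p = 0.00813), and 0.85 without G799R libraries 2 and 4. Over the 45 pairs the median r fell to 0.56 when the 2 farthest libraries were left out.

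The number of passing pairs depended on single libraries and on scaling. It was 2 without G799R library 4, 9 without wild-type library 1, 14 without wild-type library 4 and 18 without G799R library 1. It was 16 under median-of-ratios scaling and 12 with glomerular markers set equal. The median r over pairs lay between 0.60 and 0.81 with 1 library left out, at 0.69 under median-of-ratios scaling and at 0.70 with glomerular markers set equal. In wild type library 1 was the highest of the group for 8 of the 10 genes and library 4 the lowest for 6, and these libraries also had the highest (6.42) and the lowest (5.82) glomerular marker score of their group. Their part in the co-variation was not tested. Within G799R the glomerular scores lay between 6.69 and 6.87, with the highest in library 4, the lowest for the myeloid genes.

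**Figure D4:**
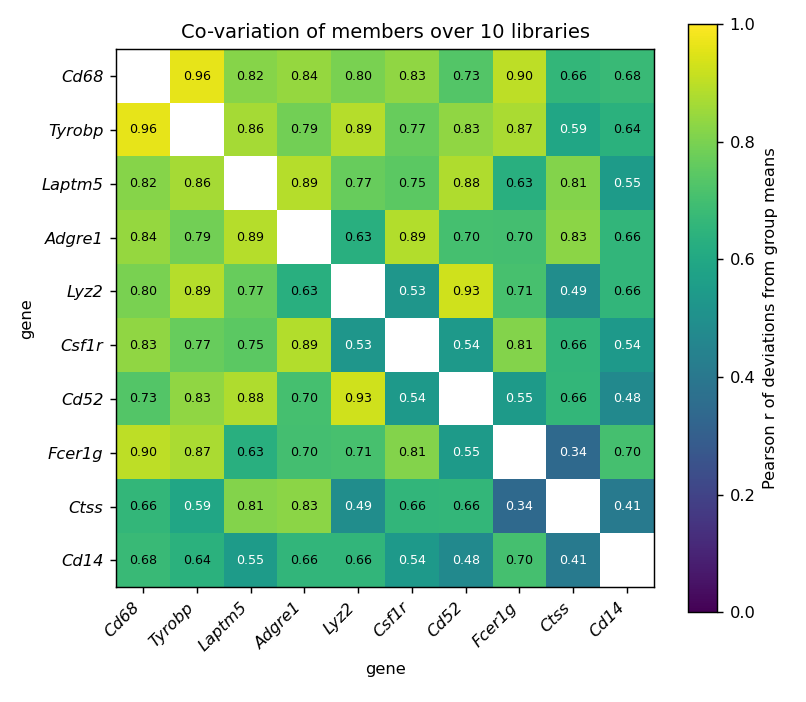
Pearson r between the deviations of each pair of genes from their group means over 10 libraries (colour scale 0 to 1, genes ordered by their r with the mean of the others). Cd68, Tyrobp, Laptm5 and Adgre1 have the highest values, and Ctss and Cd14 the lowest, down to 0.34.

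Among 11941 other genes averaging 1 FPKM or more, those whose deviations were most like the mean standardised deviation of the 10 members were Rad50 (r = 0.97), Lcp1 (0.97), Ptprc (0.96), Nckap1l (0.96), Micall2 (0.95), Mpeg1 (0.95), Itgb2 (0.95) and Myo1f (0.94), over 10 libraries. Lcp1 (L-plastin), Ptprc (CD45), Nckap1l, Mpeg1 (perforin-2), Itgb2 (the beta 2 integrin chain) and Myo1f are genes of leukocytes. Rad50, a DNA repair gene, varied little, from 5.75 to 6.64 FPKM in wild type and 6.2 to 7.32 FPKM in G799R. The median r with the members' mean was 0.19 over all tested genes, 0.81 over 17 pan-leukocyte genes, 0.65 over 18 genes of Fc and ITAM receptor signalling and 0.56 over 17 endothelial genes. It was 0.53 over the CSF1 axis and transcription factors, 0.45 over macrophage surface genes, 0.40 over monocyte markers, 0.03 over podocyte genes and −0.16 over phagocyte lysosome genes. Over markers of other leukocytes it was 0.54 (7 lymphocyte genes), 0.42 (5 dendritic cell genes) and 0.29 (9 neutrophil genes).

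Genes that act with the 2 adaptor chains were read from a list of 20 Fc and ITAM receptor signalling genes, of which 18 were tested. Of these 13 rose and 1 fell (median log2 difference 0.74), and 7 were called higher and 2 lower with glomerular markers set equal (median 0.32). Beside this list and those below stand the shares of all tested genes, 40.5% called higher and 19.3% lower. With glomerular markers set equal these shares were 4.51% and 61.3%. Clec7a, the beta-glucan receptor Dectin-1, rose from 0.686 to 2.90 FPKM (log2 difference 1.20, limma adjusted p = 0.000281).

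Among the Fc receptors themselves the directions were unequal. The activating receptor gene Fcgr4 rose 3.21-fold, from 1.35 to 4.34 FPKM (limma adjusted p = 0.000621). Fcgr1, the high-affinity activating receptor gene, rose from 0.431 to 2.18 FPKM with overlap (limma adjusted p = 0.002, and 0.00524 with glomerular markers set equal). Fcgr3 went from 1.31 ± 0.51 to 2.59 ± 1.80 FPKM and was not called (limma adjusted p = 0.113). Fcgr2b, the inhibitory Fc receptor, fell from 13.6 ± 2.32 to 2.86 ± 0.69 FPKM (SD, n = 5 each), a log2 difference of −1.92 (limma adjusted p = 3.2e-06). Its wild-type values ran from 9.61 to 15.2 FPKM and its G799R values from 1.93 to 3.52 FPKM. The tubule marker score was lower in the same libraries, and its part in the fall was not tested. Trem2, a receptor that signals through TYROBP, was at most 0.227 FPKM in wild type and listed at 0 in every G799R library, and was not tested.

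Of 12 genes of the CSF1 axis and myeloid transcription factors 9 rose and 1 fell (median log2 difference 0.68), and with glomerular markers set equal 2 were called higher and 3 lower (median 0.15). Spi1, which encodes PU.1, rose from 1.73 ± 0.63 to 7.21 ± 3.30 FPKM, at 2.32, 1.56, 1.58, 0.85 and 2.37 FPKM in wild type and 7.46, 11.9, 5.08, 3.25 and 8.35 FPKM in G799R. The groups did not overlap, G799R library 4 was again the lowest of its group, and the log2 difference was 1.52 (limma adjusted p = 0.000717), or 1.05 with glomerular markers set equal (adjusted p = 0.0039). The 2 ligands of CSF1R differed from each other. Csf1 rose from 50.3 ± 10.9 to 97.5 ± 16.8 FPKM (limma adjusted p = 0.000373), or by 0.31 and not called with glomerular markers set equal (adjusted p = 0.0513). Il34, at 20.9 ± 1.35 and 22.4 ± 1.69 FPKM, was not called (limma adjusted p = 0.246), while with glomerular markers set equal it was called lower. Csf2ra, a receptor chain for the related factor GM-CSF, rose by a log2 difference of 1.11.

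Other lysosomal genes of phagocytes moved in both directions. Of 14 tested, 5 rose and 7 fell (median −0.04), and with glomerular markers set equal 1 was called higher and 10 lower (median −0.68). The falls included Lgmn (207 to 66.1 FPKM) and Cd63, with log2 differences of −1.62 and −1.26. These genes are widely expressed and were at 207 and 254 FPKM in wild type, against 2.79 FPKM for Cd68. Mpeg1, restricted to macrophages and related cells, rose 2.95-fold.

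Of 14 tested macrophage surface genes 8 rose and 0 fell (median 0.78), and 2 were called higher with glomerular markers set equal (median 0.24). The receptors for dying cells Mertk and Axl rose by 0.79 and 1.32, and the scavenger receptor gene Msr1 by 0.78, but only Axl was called with glomerular markers set equal (0.68, limma adjusted p = 0.0013). Marco was at 0 in every library, and Cd163 and Vsig4 were at most 0.111 FPKM. In the lipopolysaccharide pathway of Cd14, 3 of 9 genes rose and 1 fell (median 0.29), beside 40.5% of all tested genes called higher and 19.3% lower. The fall was lost without wild-type library 2 or 4 or G799R library 2 or 4, and 2 fell without wild-type library 3. Tlr2 and Myd88 rose by 1.09 and 0.83, and Tlr4 and its partner Ly96 were not called (12.7 against 15.8 FPKM and 6.14 against 7.93 FPKM). The median turned to −0.30 with glomerular markers set equal, where Tlr4 was called lower.

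Of 17 pan-leukocyte genes 14 rose and 1 fell (median 0.88), and with glomerular markers set equal 5 were called higher and 1 lower (median 0.41). Ptprc rose from 6.95 ± 1.32 to 14.9 ± 4.05 FPKM with no overlap (log2 difference 0.97, limma adjusted p = 0.00129), or 0.39 and not called with glomerular markers set equal (adjusted p = 0.0859). Arhgdib rose by 1.02, and Cyba, a subunit of the phagocyte oxidase that other cells also express, fell by 1.32 on the log2 scale.

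Of 10 tested monocyte markers 6 were called higher and 1 lower. Their median was 0.82, beside 0.88 over pan-leukocyte genes and 0.78 over macrophage surface genes. With glomerular markers set equal 4 were called higher and 1 lower (median 0.49). The 6 calls higher became 3 without wild-type library 2, without wild-type library 4 or without G799R library 5, and, with single libraries left out, the call lower was kept without wild-type library 3, G799R library 3 or G799R library 5 and lost without any other. Ly6c2, a surface protein of inflammatory monocytes, stood at 0.721 to 2.25 FPKM in wild type and at 10.1, 15.3, 40.3, 17.8 and 6.23 FPKM in G799R (log2 difference 2.73, limma adjusted p = 0.000148). Its high libraries were G799R 3 and 4, the low ones for Fcer1g and Cd68. The score of interferon response genes, treated below, had the same order, at 4.85, 5.36, 6.85, 6.33 and 4.09 in G799R libraries 1 to 5. Whether the rise of Ly6c2 belongs with the interferon genes was not tested. Plac8 and Treml4 rose by 1.53 and 1.12. Ly6c2 has close paralogs in the Ly6 family, so its value is uncertain.

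Interferon response genes followed another order of libraries than the myeloid genes. All 25 were called higher both without rescaling and with glomerular markers set equal (medians 2.75 and 2.17). Their score was 2.47 to 3.33 in wild type and 4.85, 5.36, 6.85, 6.33 and 4.09 in G799R libraries 1 to 5, while the score of the 10 myeloid genes was 4.01, 4.2, 3.54, 2.95 and 3.96. G799R libraries 3 and 4 were thus the highest for interferon genes and the lowest for myeloid genes. The median r of the interferon genes with the members' mean over 10 libraries was −0.43. Ctss, with its interferon response element, was at 36.8, 36.3, 35.9, 24.6 and 26.4 FPKM in G799R libraries 1 to 5. Library 4 was thus its lowest, as it was for all 10 myeloid genes. Over 10 libraries the r of Ctss with the mean of the other members was 0.69. Within G799R its r with single members ran from −0.08 (Cd14) to 0.77 (Csf1r). As a log2 ratio to Ptprc, Ctss was at 0.99, 1.02, 1.39, 1.52 and 0.70 in G799R libraries 1 to 5. The highest were thus libraries 3 and 4, as for the interferon score, and the lowest was library 5. Relative to Csf1r libraries 3 and 4 were also highest (1.97 and 2.01), with library 2 lowest (0.73). Which order Ctss follows was not tested.

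**Figure D5:**
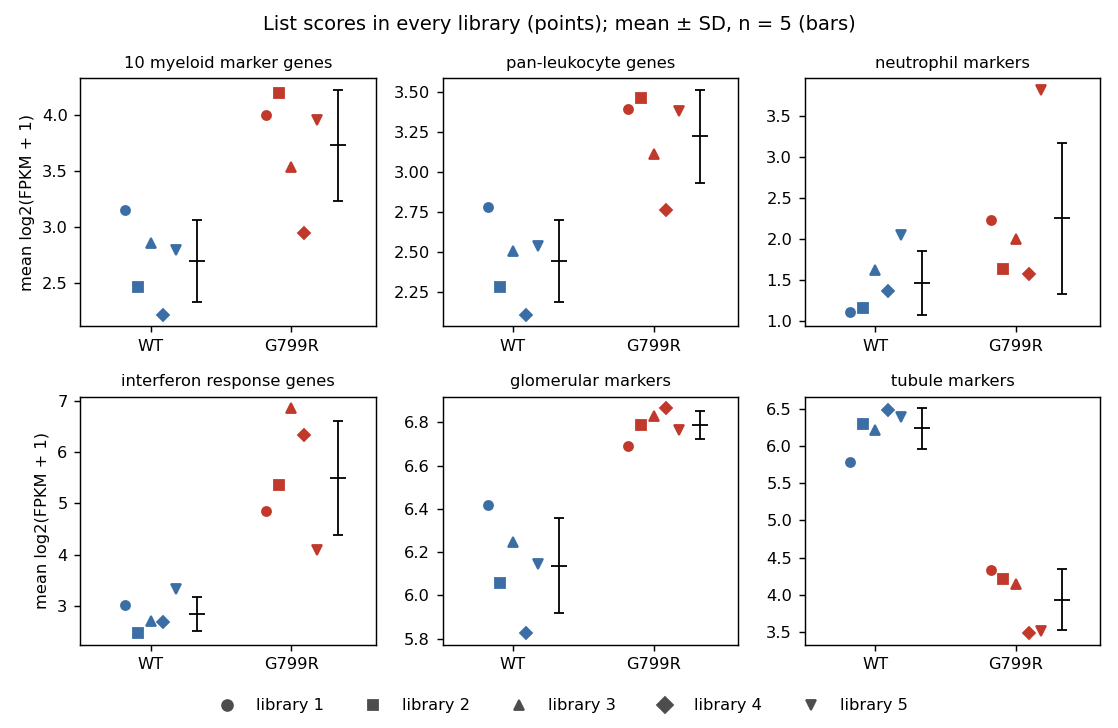
Scores (mean log2(FPKM + 1) of the tested genes of a list) in each library, with shapes for libraries 1 to 5 and bars for the mean ± SD (n = 5). G799R library 4 is the lowest of its group for the myeloid and pan-leukocyte lists, G799R libraries 3 and 4 are highest for interferon genes, and G799R library 5 stands apart for neutrophil markers at 3.82.

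Neutrophils share several of the 10 genes, among them Fcer1g, Tyrobp and Lyz2. Of 9 tested neutrophil markers 3 rose and 0 fell (median 0.75), beside 40.5% of all tested genes called higher and 19.3% lower. With glomerular markers set equal 2 were called higher, Ngp and Camp (median 0.32). Only 1 was called without G799R library 5 or without any 1 of wild-type libraries 1, 2, 3 and 5. Camp and Mmp8 were not tested without G799R library 5, as their means then fell under 0.5 FPKM. S100a9, not called (limma adjusted p = 0.292), was at 7.66 to 22.5 FPKM in wild type and 24.1, 10.2, 18.7, 9.59 and 107 FPKM in G799R. Library 5 of G799R, the highest for Lyz2 and Cd14, was also the highest for S100a8 (40.2 FPKM). Without it all 6 myeloid calls remained, and Lyz2 and Cd14 were at log2 differences of 0.54 and 0.28. Ngp and Ltf, genes of neutrophil granules, rose by 1.6 and 0.65. The part of neutrophil RNA in the values of shared genes was not tested.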

How the data were processed

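Kidney glomeruli were profiled by RNA-seq in 10 libraries, 5 wild type and 5 p.G799R, grouped by their labels. The authors deposited 1 table of FPKM values for 22053 Ensembl genes. The submitters' processing notes name HISAT2, RSEM, StringTie 1.3.1, Bowtie2 2.2.8 and fastp 0.18.0, with no role or order. The authors' genome build and annotation were not given in the sources used here. Such values are relative, FPKM included, and hold no counts, so absolute depth is unknown, no count model was run and no counting interval is given. Symbols were matched for 21963 genes, and positions come from GENCODE M21 (GRCm38), which may differ from the authors' build.

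Values were transformed to log2(FPKM + 1), which understates changes of low genes. Genes averaging 0.5 FPKM or more entered limma-trend (limma 3.58.1, R 4.3.3), Benjamini-Hochberg adjusted, threshold 0.05. Folds are ratios of mean FPKM. The script was tested on simulated data. Co-variation and ratios used exact permutation tests (scipy 1.17.1). Alternatives were a pseudocount of 0.1, no filter or a filter of 2 FPKM, median-of-ratios, quantile and glomerular marker scaling, the replicate block, Ptprc as reference, each library left out, and G799R libraries 3 and 4 left out.

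The members and lists were chosen with earlier results of these data known. The text names the members, up to 3 genes of each list with the smallest p among those averaging 1 FPKM or more, the genes most like the members, and Csf1, Il34, Trem2, Tlr4, Ly96, Fcgr3, Fcgr4, Spi1 and Ptprc. Fcgr1, Marco, Cd163, Vsig4, S100a9 and the 2 promoter stretches were chosen for mention after their values were seen. Some genes that this rule takes are not reported here.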

Additional observations from a re-analysis of the deposited data

Results flagged for a closer look

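Cd52 in G799R library 4 was 7.04 FPKM, far below the other 4 G799R libraries, with a gap to its nearest neighbour of 0.844 of the group's range. The 10 genes in 2 groups gave 20 such comparisons, and chance flags about 1 in 20 groups.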

How the results depend on the processing

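Calls higher among the 10 genes were 6 with a pseudocount of 0.1, without a filter, with a filter of 2 FPKM and with median-of-ratios or quantile scaling, 5 with glomerular markers set equal, 6 to 8 with 1 library left out (beside 35.2% to 42.6% of tested genes) and 9 without G799R libraries 3 and 4. Calls lower were 0 in all of these. The filter of 2 FPKM left out Adgre1. With glomerular markers set equal the members' median fell to 0.61, Adgre1 and Cd14 turned to −0.13 and −0.11, and calls over all tested genes became 591 higher and 8042 lower. Median-of-ratios scaling gave 3057 higher. Of the 45 pairs, 16 passed under median-of-ratios scaling, 12 with glomerular markers set equal and 2 to 32 with 1 library left out.

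Genes passing relative to Csf1r numbered 0 to 5 with 1 library left out and 0 relative to Ptprc, where Lyz2 turned to −0.32. With 1 library left out Lyz2 ran from −0.17 to 0.31, turning to −0.08 without wild-type library 4 and −0.17 without G799R library 5. Cd14 ran from −0.40 to 0.036, turning to 0.022 and 0.036 without G799R libraries 1 and 2. None of these turned values passed the test, and the cause was not tested. Same-numbered libraries of the groups did not deviate together (r from −0.08 to 0.05), and the main comparison was unpaired. The labels do not say whether the numbers pair libraries. With the replicate block 7 members were called, Lyz2 joining (limma adjusted p = 0.00322), beside 37.6% of tested genes called higher. Of 612 counts of calls in the other lists, 535 stayed within 1.5 times the value given. FPKM gives no count, so precision rests on the spread between 5 libraries a group.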

Other observations

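Of 10 dendritic cell markers 5 were tested, with 2 called higher and 1 lower in limma (median log2 difference 0.41), and 0 higher with glomerular markers set equal (median −0.12). The call lower was lost without wild-type library 1. Zbtb46, a transcription factor of dendritic cells and endothelium, rose from 16.5 ± 3.32 to 30.6 ± 4.42 FPKM (SD, n = 5 each, limma adjusted p = 0.000373), and the integrin gene Itgax from 1.43 to 2.89 FPKM (adjusted p = 0.0163). Clec9a, at 6.28 and 8.44 FPKM, was not called (limma adjusted p = 0.0561).

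Of 15 lymphocyte markers 7 were tested, with 1 called higher and 1 lower, beside 40.5% of all tested genes called higher and 19.3% lower. Their median was 0.29, turning to −0.03 with glomerular markers set equal, and 2 were called higher without wild-type library 1 or G799R library 1 or 4. The T cell kinase gene Lck and the granzyme gene Gzma were not called (0.868 against 1.3 FPKM and 1.22 against 2.53 FPKM). Of 8 mast cell markers 2 were tested. Hdc, which makes histamine, rose from 3.75 to 8.64 FPKM (limma adjusted p = 0.00394), and Kit fell from 1.92 to 1.03 FPKM (adjusted p = 0.0433), a call kept only without wild-type library 1 or G799R library 3 among the single libraries left out.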
